A study of Rattus norvegicus with 10 samples.

Results

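The bile acid genes described here are 9 genes of the liver: Cyp7a1, Cyp7b1, Cyp27a1, Amacr and Baat of bile acid synthesis, the nuclear receptors Nr0b2 and Nr1h4, and the transporters Abcb11 and Slc10a1. They are 9 of the 4737 genes that the probe table of the array names alone on a probe set, and all their probe sets were taken, 13 of 8799. The series measured total RNA of rat liver on 10 arrays, with 2 arrays in each of 5 groups: a sham control group that the labels place at 0 h, and groups taken 1, 4, 8 and 24 h after burn. Strain, sex, age and the size of the burn are not given in the labels used here, nor is whether the 2 arrays of a pair stand for different rats, so p-values cover only the array-to-array spread, which could be technical. The sham group stands at 0 h alone, and no later time has a sham group of its own.

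Bile acids are made from cholesterol in hepatocytes. CYP7A1 adds a hydroxyl group at carbon 7 and controls the rate of the classic pathway, while CYP27A1 and CYP7B1 act in the alternative pathway that starts in mitochondria. The nuclear receptor FXR, the product of Nr1h4, binds bile acids and raises SHP, the product of Nr0b2, and SHP in turn represses Cyp7a1 through NR5A2 and HNF4A. FXR also drives the export pump BSEP, the product of Abcb11, and bile acids return from the blood through NTCP, the product of Slc10a1.

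The promoters of Nr0b2 and Amacr are shown because both genes had lower intensity late after the burn and both windows held the core of an NR5A2 site. RefSeq promoter sequences of the GRCr8 assembly were matched for 5 of the 9 genes, and the 250 bases before the annotated start were searched on both strands for TCAAGG (the core of the NR5A2 site), GGTCA (the core to which many nuclear receptors bind) and the FXR inverted repeat. Capitals mark the matches of TCAAGG and GGTCA, and no matches overlapped.
Nr0b2, chr5:151062910-151063159, plus strand: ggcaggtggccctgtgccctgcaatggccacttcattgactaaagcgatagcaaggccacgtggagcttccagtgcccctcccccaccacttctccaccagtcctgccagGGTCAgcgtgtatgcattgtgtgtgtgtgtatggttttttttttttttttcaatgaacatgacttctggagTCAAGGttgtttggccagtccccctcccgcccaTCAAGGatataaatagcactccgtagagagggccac
Amacr, chr2:61673085-61673334, plus strand: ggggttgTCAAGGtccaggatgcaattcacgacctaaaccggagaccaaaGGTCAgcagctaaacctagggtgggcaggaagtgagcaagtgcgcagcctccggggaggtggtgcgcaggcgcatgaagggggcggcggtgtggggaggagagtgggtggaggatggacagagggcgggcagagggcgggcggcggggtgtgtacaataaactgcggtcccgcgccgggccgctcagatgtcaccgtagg
The Nr0b2 window held TCAAGG at 2 places, starting 69 and 36 bases before the start, and GGTCA once, 140 bases before it. The Amacr window held TCAAGG once, 243 bases before the start, and GGTCA once, 200 bases before it. TCAAGG was present in 12.6% and GGTCA in 35.4% of all 33469 promoter windows of this length. The windows of Cyp27a1 and Slc10a1 held GGTCA at 2 places each and no TCAAGG, the Baat window held neither, and the FXR inverted repeat, present in 0.227% of all windows, was in none of the 5.

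The values are linear intensities that had been scaled to a common trimmed mean on each array. Values under a floor of 36.4 were raised to it before log2 was taken, and 12 of the 13 probe sets passed the filter on low intensity. The probe set left out, J05509Complete_seq_i_at of Cyp7a1, ran from 0.2 to 25.9 and lay under the floor on all 10 arrays. Adjusted p-values are limma's with the Benjamini-Hochberg method over all 5285 probe sets tested, and calls were made under 0.05. Array medians ran from 100.1 to 131.1, and log2 intensities correlated at 0.961 to 0.966 within groups and at up to 0.96 between arrays of different groups.

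At 24 h after the burn the bile acid genes lay below sham on all 12 probe sets, and 7 of them were called lower: Cyp7a1, 1 of the 2 probe sets of Cyp27a1, all 3 of Nr0b2, Amacr and Slc10a1. Of all tested probe sets, 6.34% were called lower and 3.94% higher at 24 h. The median log2 change of the 12 was -0.89, where that of all tested probe sets was -0.04. At the earlier times fewer members were called. At 1 h 1 probe set was lower (Nr0b2) and 0 higher, where 0.643% of all were called lower and 0.795% higher. At 4 h 1 was lower (Amacr) and 0 higher, where 1.99% of all were called lower and 2.37% higher. At 8 h Amacr was lower and Cyp7a1 higher, where 1.95% of all were called lower and 1.55% higher. The median log2 change of the 12 was -0.07 at 1 h, -0.44 at 4 h and -0.23 at 8 h, beside 0.01, -0.04 and -0.1 over all probe sets. An F test over the 4 comparisons with sham, which asks whether any burn time differed from sham, called 7 of the 12 probe sets. They were of Cyp7a1, Cyp27a1, Nr0b2, Nr1h4 and Amacr, and 15.3% of all tested probe sets were called. The 4 comparisons with sham share its 2 arrays.

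**Figure D1:**
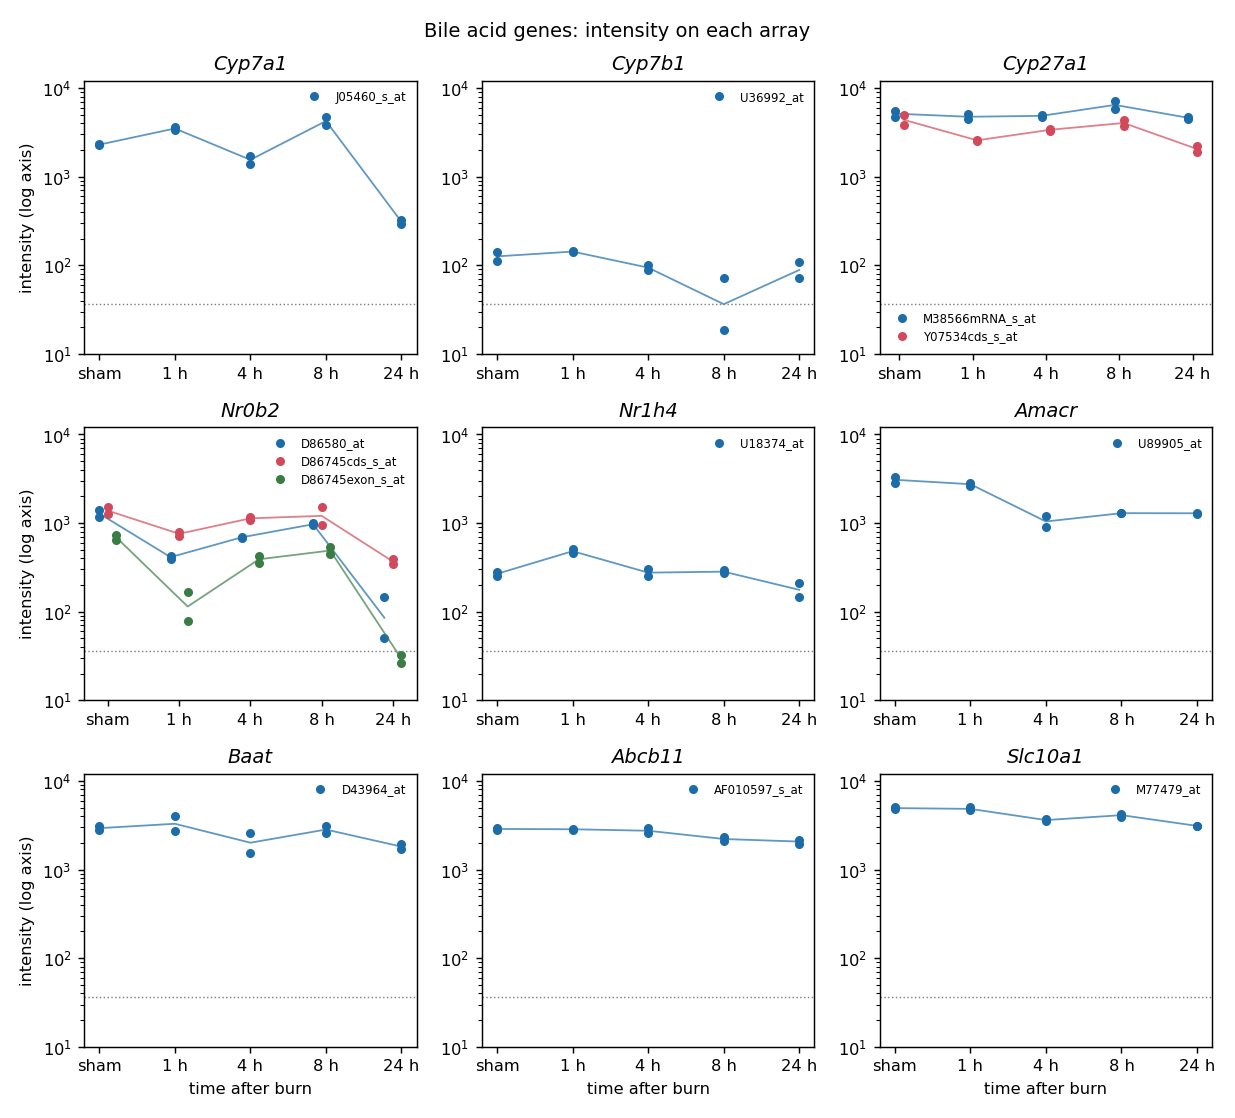
Intensity (log axis) of the 12 tested probe sets of the 9 bile acid genes on each array, by time, with a line through the geometric mean of each pair and the floor of 36.4 as a dotted line. Cyp7a1 alternates between higher and lower times and ends at 293.8 and 326.4 at 24 h, the 3 Nr0b2 probe sets dip at 1 h and again at 24 h, and Amacr steps down at 4 h.

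The fit with only the 2 groups compared, which leaves fewer arrays to estimate the spread, kept 5 of the 20 calls made on these members against sham and between neighbouring times. These 5 were Cyp7a1 at 24 h against sham and against 8 h, Nr0b2 at 24 h against sham on D86745cds_s_at, and Nr0b2 on D86745exon_s_at at 24 h against sham and against 8 h. The lost calls had adjusted p between 0.068 and 0.242.

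Cyp7a1, the rate-limiting enzyme of the classic pathway, had 2289.4 and 2309.2 on the sham arrays, 3674.7 and 3328.3 at 1 h, 1405.9 and 1708.8 at 4 h, 4700.9 and 3832.9 at 8 h, and 293.8 and 326.4 at 24 h (J05460_s_at). The 2 arrays of each time lay apart from those of every other time, in the order 8 h, 1 h, sham, 4 h and 24 h from high to low. At 24 h it averaged 310.1 ± 23.05, against 2299.3 ± 14 in sham (SD, n = 2 each), a 7.42-fold decrease (log2 change -2.89, SE 0.18, adjusted p = 0.000291). At 8 h it rose 1.85-fold over sham (log2 change 0.88, SE 0.18, adjusted p = 0.0483), a call that was lost whichever of the 10 arrays was left out (log2 change 0.74 to 1.03, adjusted p = 0.0669 to 0.183) or after quantile normalization (0.0552). The changes at 1 h and 4 h did not pass (log2 changes 0.61 and -0.57, adjusted p = 0.229 and 0.155).

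Between neighbouring times Cyp7a1 changed at each step from 1 h on. It was 2.26-fold lower at 4 h than at 1 h (log2 change -1.17, adjusted p = 0.0135), 2.74-fold higher at 8 h than at 4 h (1.45, adjusted p = 0.00437) and 13.7-fold lower at 24 h than at 8 h (-3.78, adjusted p = 0.000112). Over all members, 2 probe sets were lower and 1 higher at 4 h than at 1 h (2.54% and 2.46% of all probe sets), 0 lower and 1 higher at 8 h than at 4 h (4.81% and 3.48%), and 5 lower and 0 higher at 24 h than at 8 h (5.94% and 5.81%). The step to 4 h did not pass without 1 h array 1 or 2 or 4 h array 1 (adjusted p = 0.0875, 0.065 and 0.073; log2 changes -1.1, -1.25 and -1.03). Another signal on these arrays alternated in the same directions: the summed intensity of 12 genes of pancreatic acinar cells was 9636 to 10373 in sham, 43478 to 45171 at 1 h, 2221 to 2434 at 4 h, 12981 to 13656 at 8 h and 2120 to 2636 at 24 h. In that list 10 of the 12 tested genes were called higher than sham at 1 h, 8 lower at 4 h, 3 higher at 8 h and 9 lower at 24 h. Of all probe sets, 0.795%, 1.99%, 1.55% and 6.34% were called in these directions at these times. Its part in the Cyp7a1 values was not tested.

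**Figure D2:**
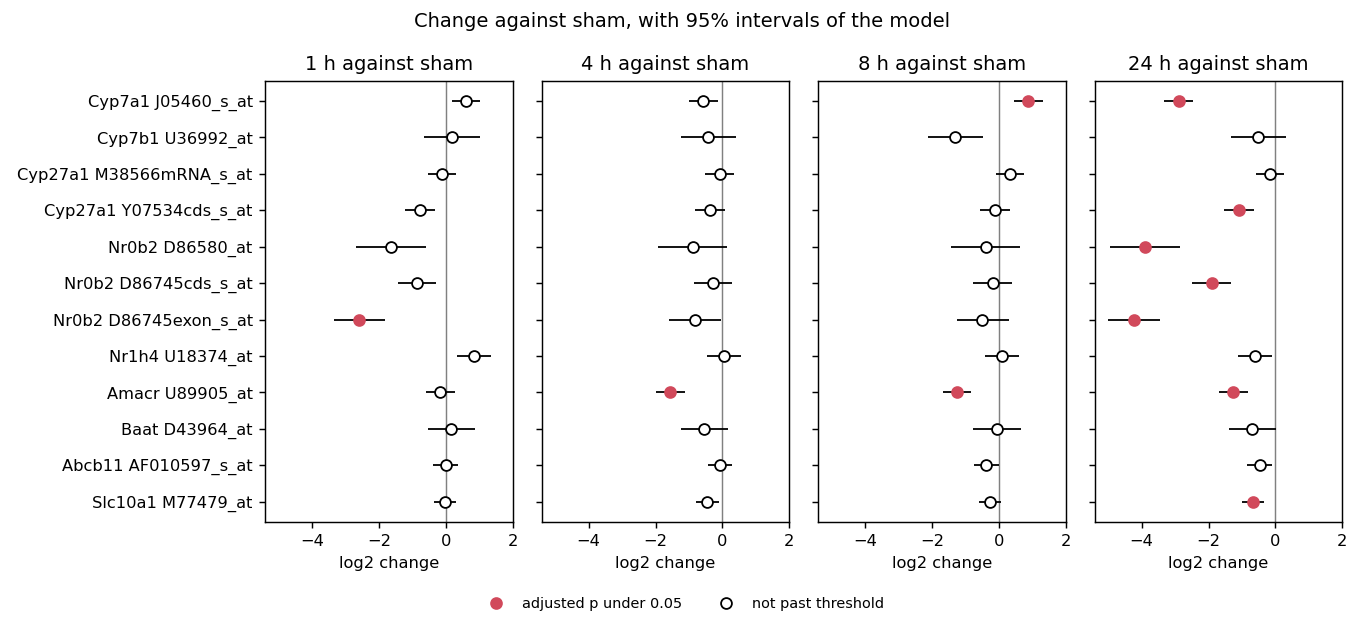
The log2 change of each tested probe set against sham at 1, 4, 8 and 24 h, with 95% intervals of the model (n = 2 arrays each); filled points had an adjusted p under 0.05. At 24 h every point lies below 0, between -4.24 for Nr0b2 on D86745exon_s_at, whose 24 h arrays were at the floor, and -0.16 for Cyp27a1 on M38566mRNA_s_at.

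Cyp27a1, the mitochondrial hydroxylase that opens the alternative pathway, was read by 2 probe sets that differed. On Y07534cds_s_at it had 3827.6 and 5020.0 in sham, 2607.7 and 2536.7 at 1 h, 3297.2 and 3470.2 at 4 h, 4370.2 and 3725.8 at 8 h, and 2229.5 and 1890.8 at 24 h. There it fell 2.13-fold at 24 h (log2 change -1.09, SE 0.19, adjusted p = 0.0145) and was 1.97-fold lower at 24 h than at 8 h (-0.97, adjusted p = 0.0198). The first call did not hold without sham array 2 (-0.9, adjusted p = 0.0741) or 24 h array 2 (-0.98, adjusted p = 0.0829), and the second when an 8 h or 24 h array was left out (log2 change -1.09 to -0.86, adjusted p up to 0.108). On M38566mRNA_s_at all 10 values lay between 4470.6 and 7211.9, and the log2 change at 24 h was -0.16 (95% interval -0.58 to 0.26, adjusted p = 0.644). The 1 h change on Y07534cds_s_at was -0.77 with both 1 h arrays below both sham arrays, and did not pass (adjusted p = 0.157; 0.0232 with an intensity trend and robust variance).

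Cyp7b1, the oxysterol hydroxylase of the alternative pathway, was dim, between 18.4 and 144.8 on all arrays, and no comparison called it. It had 72.1 and 18.4 at 8 h, against 111.4 and 142.9 in sham, and the second of the 8 h values lay under the floor. The 8 h log2 change was -1.3 (95% interval -2.13 to -0.47, adjusted p = 0.106), and it was -0.12 with a floor of the 50th percentile, so its size rests on the floor. At 1, 4 and 24 h the log2 changes were 0.18, -0.42 and -0.51 with adjusted p of 0.906, 0.636 and 0.435.

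Amacr, the racemase that turns the side chain of bile acid precursors into the form that peroxisomes shorten, fell at 4 h and was still lower at 8 and 24 h. It had 2869.5 and 3312.4 in sham, 2871.8 and 2626.1 at 1 h, 1198.8 and 907.0 at 4 h, 1285.5 and 1304.3 at 8 h, and 1316.5 and 1265.7 at 24 h. The sham and 1 h arrays overlapped, and every later array lay below all 4 of them. At 4 h it averaged 1052.9 ± 206.33, against 3090.95 ± 313.18 in sham (SD, n = 2 each), a 2.96-fold decrease (log2 change -1.56, SE 0.18, adjusted p = 0.00389). It was 2.38-fold lower than sham at 8 h (adjusted p = 0.0203) and 2.39-fold lower at 24 h (adjusted p = 0.00783), and 2.63-fold lower at 4 h than at 1 h (log2 change -1.4, adjusted p = 0.00701). From 4 to 8 h and from 8 to 24 h its log2 changes were 0.31 and 0 (95% intervals -0.12 to 0.75 and -0.44 to 0.43). The 4 h call against sham held with each array left out in turn, while the 8 h call was lost when a sham or 8 h array was left out (adjusted p up to 0.0935), the 24 h call without sham array 2 (0.0513) and the step from 1 h to 4 h without 1 h array 1 (0.0572).

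Baat, the enzyme that joins bile acids to taurine or glycine, was not called at any time. Its values were 3107.1 and 2762.5 in sham, 3979.6 and 2709.1 at 1 h, 2598.5 and 1551.2 at 4 h, 3117.9 and 2562.0 at 8 h, and 1692.3 and 1942.5 at 24 h. The arrays of a pair spread widely at 1 h and 4 h, and both 24 h arrays lay below both sham arrays. The 24 h log2 change was -0.69 (95% interval -1.4 to 0.01, adjusted p = 0.202).

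Nr0b2, which encodes the repressor SHP, was measured by 3 probe sets that moved in the same directions by different amounts. D86580_at had 1167.5 and 1404.1 in sham, 428.3 and 397.8 at 1 h, 700.2 and 683.9 at 4 h, 1001.5 and 940.8 at 8 h, and 49.9 and 147.0 at 24 h. D86745cds_s_at had 1264.8 and 1508.0 in sham, 719.6 and 797.6 at 1 h, 1177.8 and 1088.2 at 4 h, 961.2 and 1517.0 at 8 h, and 396.5 and 342.5 at 24 h. D86745exon_s_at had 726.0 and 650.6 in sham, 165.1 and 79.4 at 1 h, 358.9 and 425.4 at 4 h, 445.3 and 539.9 at 8 h, and 26.4 and 32.6 at 24 h. On each of the 3 the lowest arrays were those of 24 h and the next lowest those of 1 h, and 4 h lay above 1 h without overlap. Over the 10 arrays the 3 correlated with each other at 0.919 to 0.945 (Pearson's r of log2 intensity, a description).

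At 24 h all 3 probe sets of Nr0b2 fell against sham: 14.9-fold on D86580_at (log2 change -3.9, SE 0.44, adjusted p = 0.00288), 3.75-fold on D86745cds_s_at (-1.91, SE 0.24, adjusted p = 0.00461) and at least 18.9-fold on D86745exon_s_at, where both 24 h arrays were under the floor (adjusted p = 0.000649). These 3 calls held with each array left out in turn. Leaving out a 24 h array gave -4.68 or -3.12 on D86580_at. A floor of the 50th percentile gave -3.26 there and -2.5 on D86745exon_s_at. The second is a limit set by that floor, as both 24 h arrays lay under it. At 1 h D86745exon_s_at fell 6-fold (log2 change -2.59, SE 0.33, adjusted p = 0.0126), a call lost without sham array 1 (adjusted p = 0.0733) or 2 (0.0761). The other 2 probe sets had 1 h log2 changes of -1.63 and -0.87 with both 1 h arrays below both sham arrays, and did not pass (adjusted p = 0.189 and 0.207). D86580_at passed at 1 h without either 24 h array (adjusted p = 0.0135 and 0.0129) or with a floor of the 50th percentile (0.00153), and likewise at 4 h (0.0462, 0.0456 and 0.0125; log2 change -0.89, adjusted p = 0.375 with all arrays).

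From 1 h to 4 h Nr0b2 was 3.41-fold higher on D86745exon_s_at (log2 change 1.77, adjusted p = 0.0266). That call was lost when a sham, 4 h or 24 h array or 1 h array 2 was left out (log2 change 1.24 to 1.89, adjusted p = 0.0508 to 0.153) and with no filter (0.0567). The other 2 probe sets did not pass (0.75 and 0.58, adjusted p = 0.433 and 0.264). From 8 h to 24 h it fell on all 3, by 3.5 on the log2 scale on D86580_at (adjusted p = 0.00404) and by 1.71 on D86745cds_s_at (adjusted p = 0.00607), and was at least 13.5-fold lower on D86745exon_s_at (adjusted p = 0.00099). Leaving out a 24 h array gave -4.28 or -2.72 for this step on D86580_at. The floor of the 50th percentile gave -2.86 there and -2.02 on D86745exon_s_at, the second again a limit set by that floor. At 8 h its arrays overlapped those of sham on D86745cds_s_at, and on all 3 probe sets the 8 h change did not pass (log2 changes -0.4, -0.19 and -0.49). At 24 h Nr0b2 and Cyp7a1 both fell. Over the 10 arrays, which share 5 groups, the 3 probe sets correlated with Cyp7a1 at 0.703 to 0.813 (Pearson's r, a description).

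Nr1h4, the gene of FXR, passed the F test over the 4 comparisons with sham (adjusted p = 0.0295), while no single comparison called it. It had 281.9 and 254.6 in sham, 512.3 and 454.1 at 1 h, 305.1 and 249.8 at 4 h, 295.4 and 271.9 at 8 h, and 148.5 and 210.2 at 24 h. Both 1 h arrays lay above and both 24 h arrays below all the others, and sham, 4 h and 8 h overlapped. The log2 change was 0.85 at 1 h (95% interval 0.34 to 1.35, adjusted p = 0.161) and -0.6 at 24 h (-1.11 to -0.09, adjusted p = 0.132).

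Slc10a1, the gene of the uptake carrier NTCP, had 4849.8 and 5018.7 in sham, 5011.6 and 4660.6 at 1 h, 3737.3 and 3494.9 at 4 h, 4256.4 and 3963.8 at 8 h, and 3133.3 and 3082.8 at 24 h. Arrays from 4 h on lay below all sham and 1 h arrays, and those of 24 h were the lowest. At 24 h it averaged 3108.05 ± 35.71, against 4934.25 ± 119.43 in sham (SD, n = 2 each), a 1.59-fold decrease (log2 change -0.67, SE 0.14, adjusted p = 0.0291). That call was lost when a sham, 1 h or 24 h array was left out (up to 0.122). At 4 h the log2 change of -0.45 did not pass (adjusted p = 0.154), and did with no filter (0.0195) or with an intensity trend and robust variance (0.0249).

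Abcb11, the gene of the export pump BSEP, was not called at any time, with 2771.7 and 2972.3 in sham, 2797.3 and 2898.9 at 1 h, 2576.2 and 2912.4 at 4 h, 2319.2 and 2106.8 at 8 h, and 2178.8 and 1961.9 at 24 h. The 8 h and 24 h arrays lay below all the others. The 24 h log2 change was -0.47 (95% interval -0.84 to -0.11), which did not pass (adjusted p = 0.107) and did with no filter (0.0369) or with an intensity trend and robust variance (0.0235). At 1 h and 4 h the log2 changes were -0.01 and -0.07, with 95% intervals of -0.38 to 0.35 and -0.43 to 0.3.

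Further genes of the same pathway were taken from 3 lists, with 1 probe set per gene. Of 9 tested enzymes of bile acid synthesis and their electron donors, 3 fell and 1 rose at 24 h, and 5 did not pass, where 6.34% of all probe sets were called lower and 3.94% higher. Their median log2 change was -0.48, beside -0.04 over all probe sets. Fdx1, the ferredoxin that feeds electrons to mitochondrial P450 enzymes such as CYP27A1, had 965.9 and 920.5 at 24 h, against 2020.1 and 2107.6 in sham, a 2.19-fold decrease (log2 change -1.13, adjusted p = 0.00651). That was on D50436_at, and the other probe set of Fdx1, rc_AI044488_at, did not pass at 24 h (-0.8, adjusted p = 0.0865). Hsd3b7, the steroid dehydrogenase that follows the 7-hydroxylation, was 1.79-fold lower at 8 h (adjusted p = 0.0342) and 1.82-fold lower at 24 h (0.0139). Akr1d1, the reductase of the steroid ring, was 1.76-fold lower at 24 h (adjusted p = 0.0224). Por, the reductase that serves microsomal P450 enzymes such as CYP7A1, rose 2.17-fold at 4 h (adjusted p = 0.0448) and 2.67-fold at 24 h (0.012). At 1 h 0 of the 9 were called, at 4 h only Por, higher (2.37% of all probe sets), and at 8 h only Hsd3b7, lower (1.95%). In the fit of only the groups compared all 6 of these calls were lost (adjusted p = 0.0635 to 0.22), that of Fdx1 at 0.0734. With single arrays left out, the Fdx1 call held throughout and the 8 h call of Hsd3b7 never did (adjusted p = 0.0546 to 0.142). The 24 h calls of Hsd3b7 (up to 0.0775), Akr1d1 (up to 0.116) and Por (up to 0.0692) were lost without either sham array and with 1 or both 24 h arrays out, and that of Por at 4 h was lost with each array left out but the 1 h ones (up to 0.189).

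**Figure D3:**
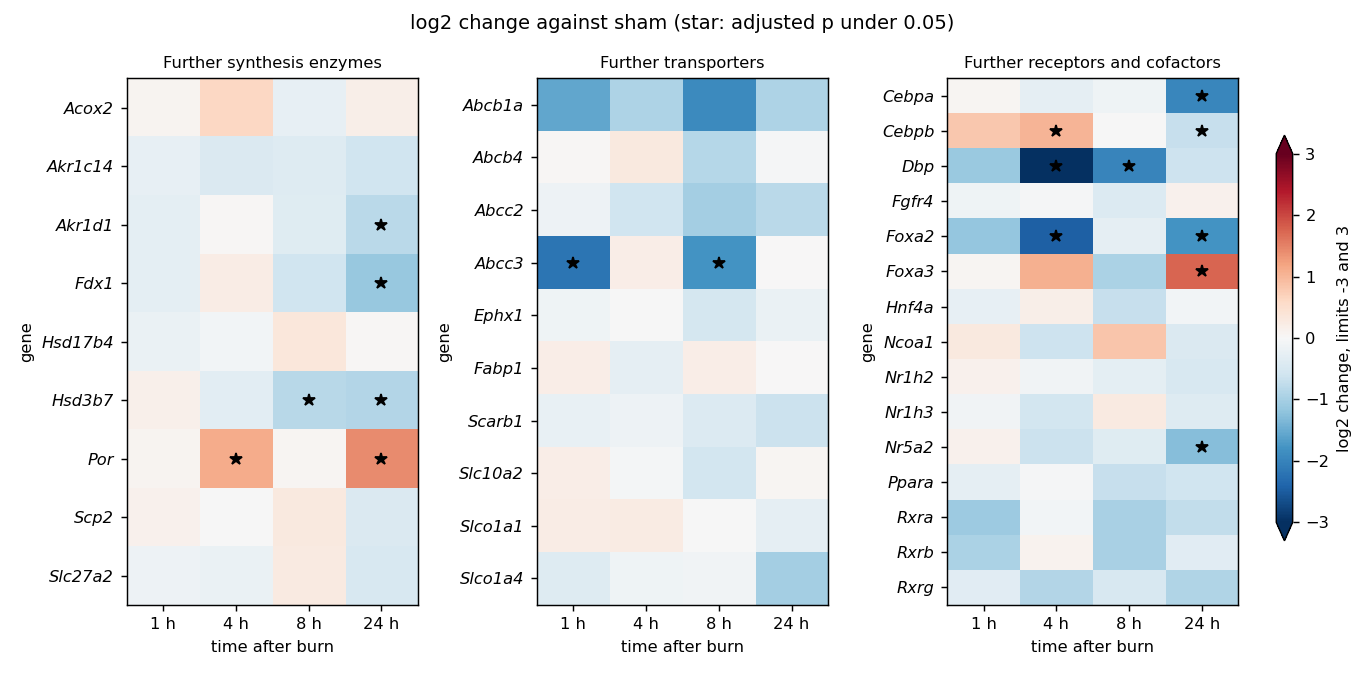
The log2 change against sham of the tested genes of 3 further lists at 1, 4, 8 and 24 h, as colour from -3 (blue) to 3 (red), with a star where the adjusted p was under 0.05. Stars at 24 h mark 4 lower and 1 higher of the 15 nuclear receptors and cofactors, where 6.34% of all probe sets were called lower and 3.94% higher; the lists were not tested against each other.

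Of 15 tested nuclear receptors and cofactors of bile acid genes, 4 fell and 1 rose at 24 h, against the same 6.34% and 3.94% of all probe sets. The median log2 change was -0.6 (all probe sets -0.04). Nr5a2, the receptor that activates Cyp7a1 and Nr0b2, fell 2.42-fold at 24 h (log2 change -1.28, SE 0.28, adjusted p = 0.0325), and lost the call when a sham, 1 h or 4 h array or 24 h array 2 was left out (log2 change -1.53 to -0.96, adjusted p up to 0.139) or with no filter (0.0571). Cebpa, a factor of the differentiated hepatocyte, had 213.5 and 193.8 at 24 h, against 739.2 and 849.4 in sham, a 3.9-fold decrease (adjusted p = 0.000772). Of the forkhead factors, Foxa2 was 5.48-fold lower at 4 h (adjusted p = 0.000923) and 3.47-fold lower at 24 h (0.00295), and Foxa3 rose 3.37-fold at 24 h (0.0054). Cebpb rose 2.03-fold at 4 h (adjusted p = 0.0191) and was 1.62-fold lower at 24 h (0.0472), and the second call was lost with each array left out and the first when a sham or 4 h array was left out (up to 0.107). Dbp, a clock output factor that activates Cyp7a1, was at the floor at 4 h, at least 33.4-fold lower than sham (adjusted p = 0.000213). A floor of the 50th percentile gave a log2 change of -3.32, a limit set by that floor. At 8 h Dbp was 3.97-fold lower (log2 change -1.99, adjusted p = 0.0185). That call was lost without sham array 2 (-1.72) or 8 h array 2 (-1.73). With only the groups compared the calls of Cebpa, Foxa3, Foxa2 at 4 h and Dbp at 4 h held. Those of Nr5a2 (0.143), Foxa2 at 24 h (0.0677), Cebpb at 4 h and 24 h (0.139 and 0.146) and Dbp at 8 h (0.181) were lost. Hnf4a, the other activator of Cyp7a1 named above, was not called against sham at any time, with log2 changes of -0.7 at 8 h and -0.08 at 24 h on X57133mRNA_at (adjusted p = 0.11 and 0.855). Its other probe sets were also lower at 8 h and did not pass, by -0.79 on D10554_s_at (adjusted p = 0.051) and -0.94 on X57133mRNA_g_at (0.0916). At 24 h they had 0.12 and -0.1. The F test called D10554_s_at (adjusted p = 0.0327).

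Among 10 tested further transporters of bile acids and bile lipids, only Abcc3 was called, lower at 1 h and 8 h (0.643% and 1.95% of all probe sets). At 4 h and 24 h 0 were called, where 1.99% and 6.34% of all were called lower. Abcc3, an export pump to the blood, had 261.2 and 249.3 in sham, 86.2 and 18.5 at 1 h, 280.3 and 306.9 at 4 h, 78.9 and 67.8 at 8 h, and 271.6 and 238.6 at 24 h. It fell 4.56-fold at 1 h (log2 change -2.19, adjusted p = 0.0436, with 1 of the 2 arrays under the floor) and 3.49-fold at 8 h (-1.8, 0.0474). These sizes were not firm. A floor of the 50th percentile lay above every 1 h and 8 h array and gave -1.07 at both times, the largest fall that floor allows. At 1 h leaving out a 1 h array gave -2.77 or -1.57 and a floor of the 10th percentile -2.68. The 1 h call held with 1 h array 1 left out and with no other array left out, the 8 h call held only without either 1 h array, and neither held after quantile normalization, with no filter, with a floor of the 10th percentile or with only the groups compared (up to 0.288). Abcc2, the pump that exports conjugates into bile, had 939.8 and 919.0 at 8 h, against 1732.5 and 2083.4 in sham, which did not pass (log2 change -1.03, adjusted p = 0.051).

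Of 12 hepatocyte marker genes, 0 were called lower at any time, where 6.34% of all probe sets were called lower at 24 h. Only Fgb, a fibrinogen chain, was called higher at 24 h (1.74-fold, adjusted p = 0.0171), where 3.94% of all were. That call was lost when a sham or 24 h array was left out, and with only the groups compared (adjusted p = 0.106). Earlier, Tat was called higher at 1 h and 4 h (log2 changes 1.14 and 1.26), and Hpx and Fgb at 8 h (0.99 and 0.79). Of all probe sets, 0.795%, 2.37% and 1.55% were called higher at these times. With only the groups compared these earlier calls were lost too. Those of Hpx and Fgb at 8 h were also lost whichever array was left out (log2 changes 0.86 to 1.11 and 0.7 to 0.87). After quantile normalization they did not pass either (0.66 and 0.64, adjusted p = 0.0637 and 0.0887). That of Tat at 1 h was lost when a sham or 1 h array was left out (1.09 to 1.2). The summed intensity of the 12 hepatocyte markers was 342890 to 368052 at 24 h and 309343 to 360424 in sham, so these arrays overlapped. At 8 h it was 435735 to 452786. In whole liver RNA, fewer cells of a type and less RNA per cell cannot be told apart. Of 8 tested bile duct markers 0 were called at any time, beside the shares of all probe sets given above. In lists this short a count of 0 says little. The summed intensity of the 11 bile duct markers on the array was 1181 to 1270 at 24 h and 1321 to 1413 in sham. Among 6 tested markers of Kupffer cells and leukocytes only Clec4f, a Kupffer cell lectin, was called. It was 1.76-fold lower at 24 h (adjusted p = 0.0145), where 6.34% of all probe sets were called lower. That call was lost when a sham or 24 h array was left out, and with only the groups compared (adjusted p = 0.101). The summed intensity of the 10 markers of these cells on the array was 3725 to 3832 at 24 h, against 4922 to 5172 in sham. No gene of these 3 lists was under the floor on all arrays, and the part of other cells in the 24 h values was not tested.

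By Pearson's r of log2 intensity over the 10 arrays, the named genes most like Cyp7a1 were Pck1 (0.992), the gluconeogenic enzyme, Ugt2b (0.98), read by a probe set of a gene family, and Acsl1 (0.97), a fatty acyl-CoA ligase. Pck1 had 20047.5 and 19619.6 in sham, 21713.8 and 23329.6 at 1 h, 14928.8 and 17048.9 at 4 h, 23974.1 and 21933.1 at 8 h, and 7671.1 and 7485.3 at 24 h. The directions at all 4 times were those of Cyp7a1, over a narrower range. The genes most like Nr0b2 on D86745cds_s_at were Sardh (0.974), the sarcosine dehydrogenase, Lgals9 (0.94), a galectin, and Rab7a (0.938), a small GTPase of late endosomes. These values describe the highest values over all named genes in 5 groups and carry no test.

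**Figure D4:**
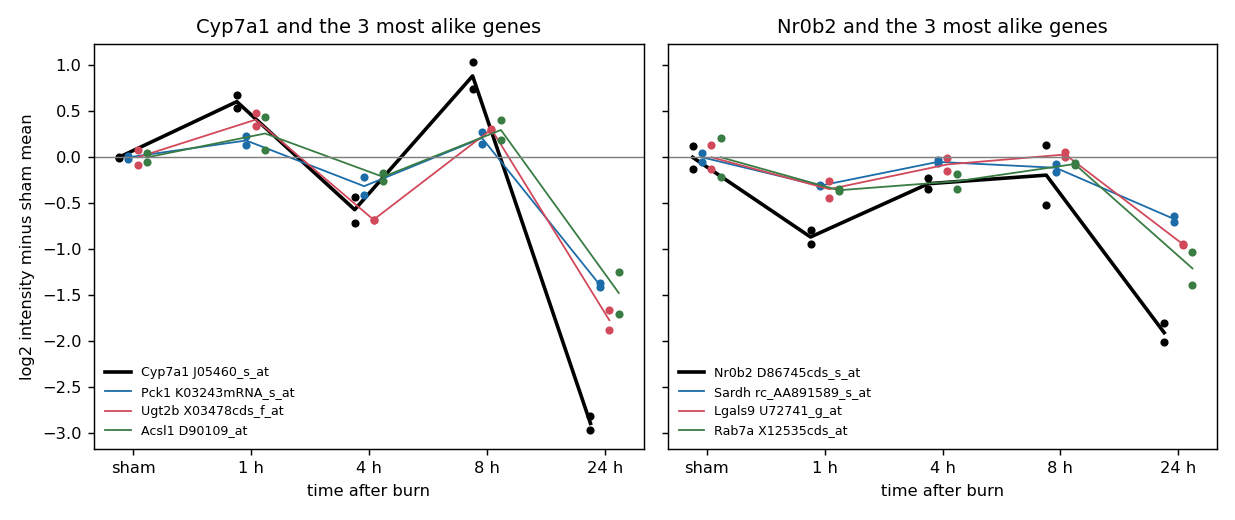
The log2 intensity minus the sham mean on each array for Cyp7a1 (left) and Nr0b2 on D86745cds_s_at (right), each with the 3 genes of highest Pearson's r over the 10 arrays; lines join the means of pairs. Cyp7a1 and its 3 genes lie above 0 at 1 h and 8 h and below it at 4 h and 24 h, and Nr0b2 with its genes lies lowest at 24 h.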

How the data were processed

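The deposited table held a linear intensity value for each of 8799 probe sets on each of 10 arrays. The authors' scaling was read from the values: the mean after removal of 2% at each end was 500.9 to 501 on every array. Which software the authors used is not given here. Values were used as deposited, raised to a floor of 36.4 (the median of the arrays' 25th percentiles) and put on the log2 scale. Folds are ratios of geometric means after the floor, and a fold against a pair under the floor is written "at least". Probe sets above the array median on at least 2 arrays were tested (5285). The probe table gave 1 symbol for 7018 probe sets, several for 308 and none for 1473. The 5 groups were fitted together with limma 3.58.1 in R 4.3.3 (no covariate, 5 residual degrees of freedom, tests two-sided), after a check on simulated data. A gene of a list is represented by its probe set with the highest mean. The members and lists were chosen with earlier results of these data known. Named genes were all members, up to 4 genes per list by F test p, and called genes that a sentence turns on. The 2 arrays per group limit the precision. Alternatives were another normalization, 2 other floors, no filter, a trended robust variance, a replicate block, fewer groups in the fit and single arrays left out.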

Additional observations from a re-analysis of the deposited data

Results flagged for a closer look

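Intensity differed between neighbouring times for Cyp7a1, Cyp27a1, Nr0b2 and Amacr by the test of the difference itself in limma (adjusted p under 0.05), with 2 arrays per time. With sham at 0 h alone, an effect of the burn cannot be told apart here from other changes over these hours. Cyp7a1 had log2 changes of -1.17 from 1 h to 4 h, 1.45 from 4 h to 8 h and -3.78 from 8 h to 24 h. Cyp27a1 had -0.97 from 8 h to 24 h on Y07534cds_s_at. Nr0b2 had -3.5 on D86580_at, -1.71 on D86745cds_s_at and -3.75 on D86745exon_s_at from 8 h to 24 h, and 1.77 on D86745exon_s_at from 1 h to 4 h. Amacr had -1.4 from 1 h to 4 h.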

How the results depend on the processing

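The counts of called member probe sets moved with the setting. With only the groups compared they were 0 at 1, 4 and 8 h and 3 at 24 h against sham, and 0 for the steps to 4 h and 8 h and 2 for the step to 24 h. With the floor at the 50th percentile they were 2 at 1 h, 3 at 4 h and 5 for the step from 1 h to 4 h. With an intensity trend and robust variance they were 2 at 1 h and 3 at 4 h, and with no filter 2 at 4 h. After quantile normalization the 8 h count was 1. The replicate number did not pair the arrays by the rule used. Deviations of same-numbered arrays correlated at 0.011 to 0.17 over 10 pairs of groups, above 0.1 in 5. All were above 0, a hint from the data and not the design. With 2 arrays per group the deviations of a pair mirror each other. Differently numbered arrays of 2 groups therefore have the same correlations with the sign reversed, which adds nothing to that hint. With a replicate block the 8 h count was 1, since the 0.88 of Cyp7a1 did not pass there (adjusted p = 0.0694), and the other 19 of 20 member calls were kept. Among the further genes the block lost Por at 4 h (0.0514), Abcc3 at 8 h (0.0534) and Cebpb at 24 h (0.0584). With single arrays left out the counts ran from 0 to 2 at 1 h, 1 to 2 at 4 h, 0 to 1 at 8 h and 4 to 7 at 24 h against sham, 1 to 3, 1 to 1 and 4 to 5 for the 3 steps, and 5 to 6 for the F test (main value 7). Of the 20 calls, 10 held with every array left out in turn. Against sham the sign turned only for changes of at most 0.19 that were not called: Slc10a1 at 1 h (0.01 after quantile normalization, and -0.08 to 0.02 with arrays left out), Cyp7b1 at 1 h (0 to 0.36), Cyp27a1 at 4 h on M38566mRNA_s_at (-0.2 to 0.03) and at 8 h on Y07534cds_s_at (-0.32 to 0.08), Nr0b2 at 8 h on D86745cds_s_at (-0.52 to 0.14), Nr1h4 at 4 h (-0.1 to 0.19), Baat at 1 h (-0.11 to 0.44) and 8 h (-0.19 to 0.09), and Abcb11 at 1 h (-0.06 to 0.04) and 4 h (-0.16 to 0.02). Over all probe sets, limma with only the groups compared called 0 at 1 h and 8 h (574 and 779 at an unadjusted p under 0.05), 69 at 4 h and 104 at 24 h, where the 5 groups together gave 76, 230, 185 and 543 at 1, 4, 8 and 24 h, and a trended robust variance gave 140, 380, 377 and 830. The cause of these moves was not tested.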

Other observations

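Akr1d1, the reductase that acts on the steroid ring of bile acids, had a second probe set. S80431_s_at was 5.72-fold lower at 24 h than in sham (log2 change -2.52, SE 0.32, adjusted p = 0.00481), against 1.76-fold on D17309_at. Por rose at 24 h on all 3 of its tested probe sets, 2.67-fold on rc_AI137856_s_at, 2.02-fold on E01524cds_s_at and 1.82-fold on M10068mRNA_s_at (adjusted p = 0.012, 0.0155 and 0.0318). At 4 h Por did not pass on M10068mRNA_s_at (log2 change 0.64, adjusted p = 0.129) and did on E01524cds_s_at (1.11, adjusted p = 0.0177). Cebpb on S77528cds_s_at did not pass at 4 h (0.52, adjusted p = 0.18) and was called lower at 24 h (-0.72, adjusted p = 0.0442). Foxa3 rose at 24 h on both of its probe sets, 3.37-fold on AB017044exon_at and 2.54-fold on AB017044exon_g_at (adjusted p = 0.0054 and 0.00461). Dbp on J03179_at was called lower at 4 h (at least 13.3-fold, adjusted p = 0.00027) and 8 h (log2 change -1.39, 0.025). It was also called lower at 1 h there (-1.3, adjusted p = 0.0466), where J03179_g_at did not pass (-1.12, 0.157). At 24 h neither passed (-0.83 and -0.63, adjusted p = 0.0592 and 0.213).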
